A study of Mus musculus with 42 samples.

Results

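The 10 immediate early genes, Fos, Fosb, Junb, Egr1, Nr4a1, Arc, Npas4, Ier2, Ier5 and Dusp1, were followed in single cerebellum libraries of fasted and refed mice. They were chosen by symbol, with earlier results of these data known. Each was found in both count tables, among the 35275 genes that each table lists. All 10 passed the filter on low counts in both tables. The mice were male and of the C57/BL6NTac strain per the design text (C57BL/6 per the sample labels), and carried no stated transgene or mutation. They ate ad libitum until 3 months of age and were then assigned at random. For 3 months, AL mice stayed on free feeding. IF16 mice fasted for 16 h a day, with food from 7 am to 3 pm, and EOD mice had food for 24 h and none for the next 24 h, in turns that began at 7 am. Libraries of these groups came from mice aged 6 months. In the groups AL-R, IF16-R and EOD-R the same regimens were followed by 2 months of free feeding for all mice, with an age of 8 months at the end. Each group had 5 RNA-seq libraries, 30 in all. The hour of collection relative to feeding is not given in the sources used here.

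Immediate early genes are transcribed within minutes of a stimulus, without new protein synthesis, and their short-lived mRNAs fall back soon afterwards. In neurons they are switched on by synaptic activity and calcium through factors that include CREB and the serum response factor, and many of their products are transcription factors that act on later genes.

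Promoter letters are shown for 4 of the 5 members with the widest spread between libraries (Fos, Nr4a1, Npas4 and Dusp1) and for Ier5, one of the narrowest. Whether these letters go with the levels was not tested. RefSeq sequence of build GRCm38.p6 held a window for 7 of the 10 members, and those of Egr1, Arc and Ier2 were not used here. The stretches below end at the base before the RefSeq transcription start, except that of Dusp1, which ends 50 bases earlier because the deposited gene model takes in the rest. Capitals mark CREB-type letters (CGTCA, or TGACG when read on the opposite strand), the full palindrome TGACGTCA, the EGR letters GCGNGGGCG and the TATA letters TATAAA. The Fos stretch is chr12:85473640-85473889, plus strand, that of Nr4a1 chr15:101266596-101266845, plus strand, and that of Npas4 chr19:4989972-4990221, minus strand. The Dusp1 stretch is chr17:26508523-26508722, minus strand, and that of Ier5 chr1:155099637-155099886, minus strand.
Fos: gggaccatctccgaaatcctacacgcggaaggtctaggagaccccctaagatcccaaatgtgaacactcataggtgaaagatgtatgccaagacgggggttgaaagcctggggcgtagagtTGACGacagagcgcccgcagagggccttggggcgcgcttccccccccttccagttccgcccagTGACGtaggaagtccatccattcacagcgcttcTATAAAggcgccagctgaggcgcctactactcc
Nr4a1: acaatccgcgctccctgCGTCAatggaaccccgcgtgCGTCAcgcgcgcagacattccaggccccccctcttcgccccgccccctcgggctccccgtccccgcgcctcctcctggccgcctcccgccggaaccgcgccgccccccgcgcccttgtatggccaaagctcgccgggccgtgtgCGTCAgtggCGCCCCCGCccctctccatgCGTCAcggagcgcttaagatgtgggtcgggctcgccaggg
Npas4: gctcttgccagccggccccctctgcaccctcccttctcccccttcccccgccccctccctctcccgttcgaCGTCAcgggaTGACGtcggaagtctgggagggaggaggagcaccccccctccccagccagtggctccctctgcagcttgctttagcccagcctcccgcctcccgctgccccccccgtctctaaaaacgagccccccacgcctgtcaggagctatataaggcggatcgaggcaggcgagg
Dusp1: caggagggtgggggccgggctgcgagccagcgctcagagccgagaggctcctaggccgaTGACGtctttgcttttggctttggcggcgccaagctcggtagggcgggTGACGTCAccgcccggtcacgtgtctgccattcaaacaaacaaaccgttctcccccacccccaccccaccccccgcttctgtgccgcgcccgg
Ier5: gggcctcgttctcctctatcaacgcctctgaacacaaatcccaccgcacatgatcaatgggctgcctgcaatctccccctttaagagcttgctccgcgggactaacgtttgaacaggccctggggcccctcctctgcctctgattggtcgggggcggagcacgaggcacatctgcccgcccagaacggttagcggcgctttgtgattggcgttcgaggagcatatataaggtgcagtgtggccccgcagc

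Both strands of the 250 bases before the start were searched. CGTCA was present for 6 of the 7 members, Fos, Fosb, Junb, Nr4a1, Npas4 and Dusp1, and for 19.8% of 27025 genes. Nr4a1 held 4 such matches and Fos held 2. The full TGACGTCA, which overlaps the shorter motif, was present for Dusp1 alone among the 7 and for 1.77% of genes. GCGNGGGCG was present for Fosb and Nr4a1 and for 5.33% of genes, and TATAAA for Fos and for 14.3% of genes. The AP-1 letters TGANTCA and the CArG box of serum response elements were present for 0 of the 7, against 7.82% and 1.62% of genes. Bases farther upstream were not searched, so such elements can lie outside these windows. A match is a description of the letters and no measurement of binding.

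Total counts per library ranged from 26799825 to 36167435. Levels are given as CPM (read counts scaled to a common library size, with TMM factors taken within a table), and FPKM values, which are scaled by gene length as well, are used where genes are compared with each other. The deposited counts of the members ranged from 18 for Fosb to 5010 for Dusp1, so counting error alone is small for all but the lowest Fosb and Npas4 values. Granule and Purkinje cell markers were present in every library, at summed levels of 4430 to 5230 CPM and 4160 to 6570 CPM over 6 markers each. Markers of the choroid plexus, a neighbouring tissue, ranged from 33.6 to 4280 CPM over 11 markers. Summed over those markers, the median was 2090 CPM in AL (45.7 to 4280 CPM), 642 CPM in IF16 (40.6 to 3100 CPM) and 1970 CPM in EOD (758 to 2900 CPM). After refeeding the medians were 46.6 CPM in AL-R (44.3 to 1990 CPM), 35.9 CPM in IF16-R (33.6 to 679 CPM) and 40.8 CPM in EOD-R (37.3 to 2310 CPM). The libraries AL 4, AL 5, IF16 1 and EOD 4 stood apart by the slope of log2 CPM on log2 gene length, at -0.158, -0.106, -0.114 and 0.139, against -0.0301 to 0.0636 in the other 11 libraries of their table. The labels do not say outright that each library came from a separate mouse, and p-values measure the spread between these libraries.

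Within the AL group the members differed widely in level. Dusp1 (23.0 ± 6.91 FPKM, SD, n = 5), Nr4a1 (20.5 ± 4.82) and Ier2 (16.8 ± 3.36) were the most abundant. Dusp1 and Nr4a1, and Nr4a1 and Ier2, did not differ by more than their combined SD, while Ier2 exceeded Egr1 by more than it (4.60 against 3.81 FPKM). Egr1 (12.2 ± 1.79 FPKM), Fos (10.4 ± 3.96), Ier5 (10.3 ± 0.618), Arc (10.1 ± 0.780) and Junb (9.56 ± 1.51) followed, and no neighbours among these 5 differed beyond that spread. Npas4 (1.63 ± 0.647 FPKM) and Fosb (0.508 ± 0.225) lay below the rest by more than it. In each of the other 5 groups the order began with Dusp1, Nr4a1 and Fos, and mean Fos ranged from 18.9 FPKM in AL-R to 29.8 FPKM in EOD-R. Npas4 and Fosb were the lowest members in all 6 groups.

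**Figure D1:**
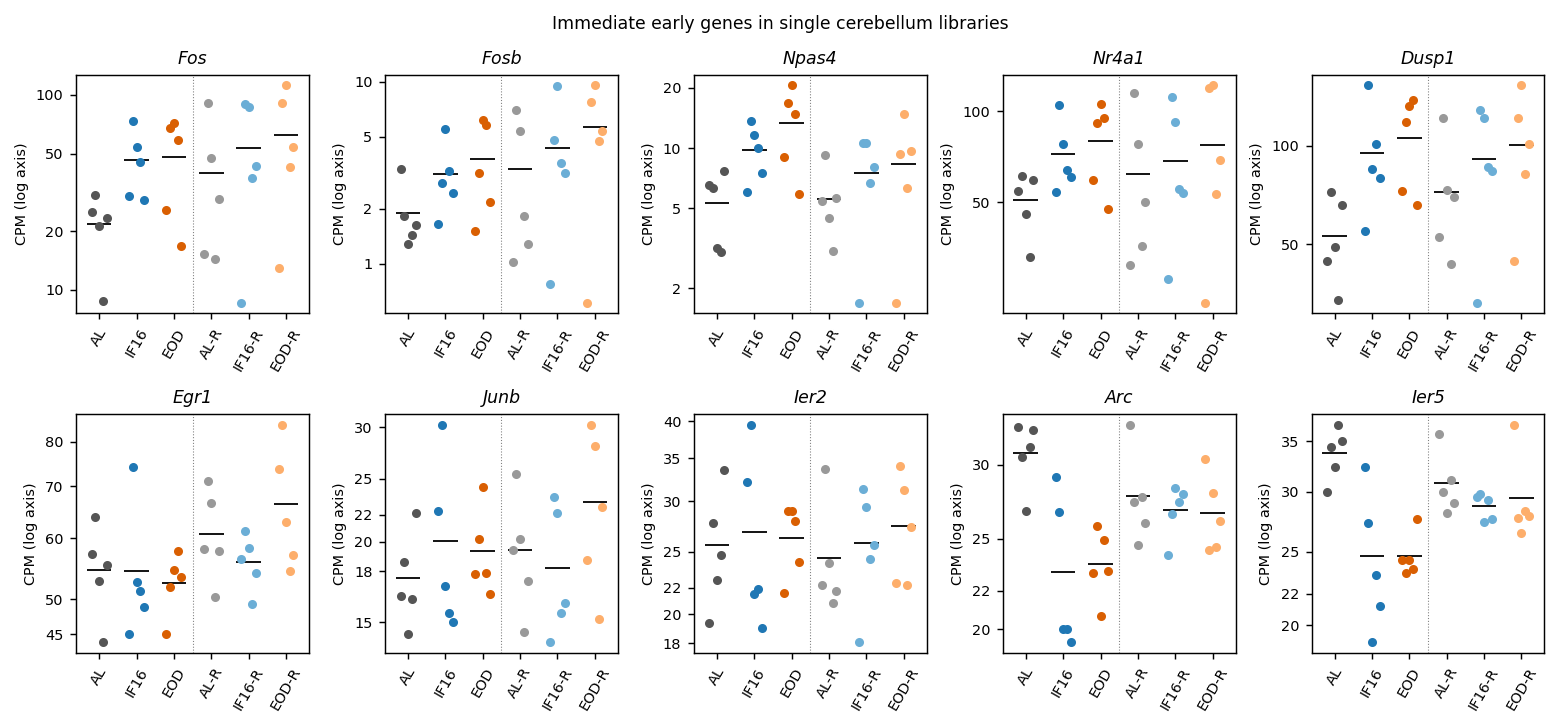
Level of each immediate early gene in every library, in CPM on a log axis whose range differs between panels. Points are single libraries in order of replicate number, black lines are group means, and the dotted line separates the table of the regimens (left) from that of refeeding (right). Fos reaches 8.59 and 112 CPM at its extremes, while Arc stays between 19.4 and 33.1 CPM.

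Fos lies on chromosome 12 (85473890 to 85477273, plus strand, in the deposited annotation) and encodes the partner of JUN proteins in the AP-1 transcription factor. In the AL libraries it measured 25.2, 30.8, 21.2, 8.76 and 23.3 CPM. The IF16 libraries had 30.2, 73.9, 53.8, 45.3 and 28.8 CPM, and the EOD libraries 25.6, 67.6, 72.2, 58.4 and 16.7 CPM. In each regimen 3 of 5 libraries lay above all AL libraries, while IF16 1, IF16 5, EOD 1 and EOD 5 lay within the AL range, so the groups overlapped. The mean level was 46.4 ± 18.6 CPM for IF16 and 48.1 ± 25.3 CPM for EOD, beside 21.8 ± 8.13 CPM for AL (SD, n = 5 each). The log2 fold change against AL was 1.09 ± 0.389 (SE) in IF16 (adjusted p = 0.403) and 1.14 ± 0.389 in EOD (adjusted p = 0.306, edgeR quasi-likelihood test, Benjamini-Hochberg over all genes tested). Neither passed the threshold of 0.05. The 95% interval was 0.26 to 1.91 in IF16 and 0.32 to 1.96 in EOD.

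After refeeding the single libraries lay much further apart. Fos measured 15.2, 91.4, 47.5, 14.4 and 29.3 CPM in AL-R. The IF16-R libraries had 8.59, 90.4, 86.7, 37.4 and 43.3 CPM, and the EOD-R libraries 12.9, 90.9, 112, 42.8 and 54.1 CPM. Each group held libraries at 90.4 CPM or more and at 15.2 CPM or less, and the 3 groups overlapped over nearly their whole range. The highest library exceeded the lowest 6.37-fold in AL-R, 10.5-fold in IF16-R and 8.69-fold in EOD-R, against 3.51-fold in AL, 2.57-fold in IF16 and 4.32-fold in EOD. Against AL-R the log2 fold change was 0.43 ± 0.567 in IF16-R (adjusted p = 0.835) and 0.66 ± 0.565 in EOD-R (adjusted p = 0.803, edgeR). The intervals, -0.76 to 1.62 and -0.52 to 1.85, take in the values seen at the end of the regimens.

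Fosb, on chromosome 7 (19302721 to 19310045, minus strand), encodes another FOS family protein and was the least abundant member. Its levels were 3.30, 1.84, 1.29, 1.43 and 1.63 CPM in the AL libraries, 1.65, 2.77, 5.53, 3.22 and 2.46 CPM in those of IF16, and 1.51, 3.14, 6.18, 5.78 and 2.18 CPM in EOD. AL 1 was the only AL library above 2 CPM, and the groups overlapped. Against AL the log2 fold change was 0.72 ± 0.391 in IF16 (adjusted p = 0.549) and 0.99 ± 0.389 in EOD (adjusted p = 0.321, edgeR). After refeeding Fosb spread most of all members, from 1.02 to 7.03 CPM in AL-R, from 0.776 to 9.45 CPM in IF16-R and from 0.611 to 9.57 CPM in EOD-R, a 15.7-fold range in the last. Its refed differences from AL-R were 0.40 ± 0.597 and 0.78 ± 0.588 on the log2 scale (adjusted p = 0.858 and 0.770, edgeR).

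Junb, on chromosome 8 (84976909 to 84978748, minus strand), encodes a JUN family partner of FOS, and spread less. Its levels ran from 14.4 to 22.1 CPM in AL, from 15 to 30.3 CPM in IF16 and from 16.6 to 24.3 CPM in EOD, with IF16 2 the highest library. Against AL the log2 fold change was 0.19 ± 0.177 in IF16 and 0.14 ± 0.177 in EOD (adjusted p = 0.698 and 0.676, edgeR). The refed groups covered 14.5 to 25.4 CPM (AL-R), 14.0 to 23.4 CPM (IF16-R) and 15.2 to 30.3 CPM (EOD-R). Their differences from AL-R were -0.09 ± 0.181 and 0.25 ± 0.179 (adjusted p = 0.905 and 0.754, edgeR).

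Egr1, on chromosome 18 (34859823 to 34864984, plus strand), encodes a zinc finger transcription factor of synaptic plasticity. Its mean was 54.6 ± 7.24 CPM for AL, 54.4 ± 11.4 CPM for IF16 and 52.5 ± 4.68 CPM for EOD (SD, n = 5 each), and the 3 ranges overlapped. The log2 fold change was -0.01 ± 0.123 in IF16 and -0.06 ± 0.123 in EOD, with intervals of -0.27 to 0.25 and -0.32 to 0.20 (adjusted p = 0.985 and 0.809, edgeR). Egr1 therefore differed from its AL level by less than the SD of AL in both regimens, while Fos in the same libraries had fitted levels 2.12-fold and 2.20-fold those of AL. After refeeding the mean was 60.8 ± 8.16 CPM for AL-R, 55.8 ± 4.51 CPM for IF16-R and 66.5 ± 12.4 CPM for EOD-R. EOD-R exceeded IF16-R by 0.25 ± 0.106 on the log2 scale (unadjusted p = 0.0291, adjusted p = 0.446, edgeR). In this fit, which has no term for the replicate number, Egr1 was the only member with an unadjusted p under 0.05 between the refed groups.

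Nr4a1, on chromosome 15 (101266846 to 101274792, plus strand), encodes the orphan nuclear receptor NUR77. The AL libraries had 54.4, 61.0, 45.8, 32.9 and 59.3 CPM. In IF16 they measured 54.2, 105, 77.9, 63.9 and 60.4 CPM, and in EOD 59.3, 91.5, 106, 94.9 and 47.3 CPM. In each regimen 3 libraries exceeded all AL libraries, and the groups overlapped. Against AL the log2 fold change was 0.51 ± 0.226 in IF16 (adjusted p = 0.487) and 0.65 ± 0.227 in EOD (adjusted p = 0.309, edgeR). The refed libraries ran from 31.0 to 115 CPM in AL-R, from 27.7 to 112 CPM in IF16-R and from 23.2 to 122 CPM in EOD-R. Their differences from AL-R were 0.14 ± 0.415 and 0.33 ± 0.414 (adjusted p = 0.936 and 0.889, edgeR).

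Arc, on chromosome 15 (74669083 to 74672570, minus strand), encodes a neuronal protein of excitatory synapses that acts on AMPA receptor trafficking. It is the one member here that encodes a synaptic protein. The AL libraries measured 32.9, 30.6, 26.8, 31.3 and 32.7 CPM, the IF16 libraries 29.1, 26.7, 20, 20 and 19.4 CPM, and the EOD libraries 23.0, 25.8, 20.7, 24.9 and 23.1 CPM. All 5 EOD libraries lay below the lowest AL library, as did 4 of 5 in IF16, where IF16 1 lay within the AL range. The log2 fold change was -0.42 ± 0.112 in IF16 (unadjusted p = 0.00157, adjusted p = 0.266) and -0.39 ± 0.112 in EOD (unadjusted p = 0.00269, adjusted p = 0.241, edgeR), so neither was called. The refed libraries measured 33.1, 27.4, 24.6, 27.7 and 26.0 CPM in AL-R, 24.0, 26.6, 28.3, 27.4 and 27.9 CPM in IF16-R, and 24.3 to 30.4 CPM in EOD-R. Those groups overlapped, with differences from AL-R of -0.05 ± 0.0758 and -0.06 ± 0.0760 (adjusted p = 0.864 and 0.893, edgeR).

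Npas4, on chromosome 19 (4984355 to 4989971, minus strand), encodes a transcription factor induced by calcium entry in neurons. It measured 6.51, 6.30, 3.17, 3.03 and 7.71 CPM in the AL libraries, 6.07, 13.6, 11.6, 10 and 7.54 CPM in those of IF16, and 9.06, 16.7, 20.5, 14.7 and 5.93 CPM in EOD. In EOD 4 of 5 libraries exceeded every AL library, and EOD 5 did not. Its EOD difference was the largest among the members, with a log2 fold change of 1.32 ± 0.331 (interval 0.62 to 2.02, unadjusted p = 0.000976, adjusted p = 0.203, edgeR). In IF16 the log2 fold change was 0.87 ± 0.331 (adjusted p = 0.419), and EOD exceeded IF16 by 0.45 ± 0.321 (adjusted p = 0.977, edgeR). The refed groups measured 3.06 to 9.22 CPM in AL-R, 1.70 to 10.6 CPM in IF16-R and 1.70 to 14.8 CPM in EOD-R, with IF16-R 1 and EOD-R 1 at the bottom. Differences from AL-R were 0.44 ± 0.432 and 0.59 ± 0.430 (adjusted p = 0.769 and 0.754, edgeR).

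Ier2, on chromosome 8 (84661331 to 84662852, minus strand), encodes a small nuclear protein induced by growth factors. Its mean was 25.6 ± 5.42 CPM for AL, 26.8 ± 8.68 CPM for IF16 and 26.3 ± 3.30 CPM for EOD (SD, n = 5 each), with log2 fold changes of 0.07 ± 0.185 and 0.04 ± 0.185 (adjusted p = 0.901 and 0.917, edgeR). After refeeding the means were 24.5, 25.8 and 27.4 CPM in AL-R, IF16-R and EOD-R. All differences lay within the spread between libraries.

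Ier5, on chromosome 1 (155096361 to 155099636, minus strand), encodes a relative of IER2 that acts with heat shock factor HSF1. It shared the direction of Arc. The AL libraries measured 30, 34.4, 32.4, 36.8 and 35 CPM, the IF16 libraries 32.4, 27.3, 19.0, 23.3 and 21.2 CPM, and the EOD libraries 24.4, 23.4, 24.4, 23.7 and 27.6 CPM. All EOD libraries lay below all AL libraries, and IF16 1 was again the only IF16 library within the AL range. Against AL the log2 fold change was -0.45 ± 0.115 in IF16 (unadjusted p = 0.00113, adjusted p = 0.235) and -0.45 ± 0.115 in EOD (unadjusted p = 0.00124, adjusted p = 0.203, edgeR). With DESeq2 in place of edgeR the adjusted p was 0.0332 and 0.0365, and without IF16 1 the edgeR value in IF16 was 0.0475. With the length slope as covariate, edgeR gave -0.39 in IF16 (adjusted p = 0.0365) and -0.29 in EOD (adjusted p = 0.342), the latter more than 1.5 times smaller than without it. In AL-R, IF16-R and EOD-R the level was 30.8 ± 3.02, 28.7 ± 1.12 and 29.4 ± 4.16 CPM, with EOD-R 1 (36.8 CPM) above the other 4 libraries of its group (26.5 to 28.3 CPM).

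Dusp1, on chromosome 17 (26505590 to 26508519, minus strand), encodes the phosphatase MKP-1, which switches off MAP kinases and so ends the signal that induces it. It measured 44.4, 72.5, 49.1, 33.8 and 65.8 CPM in the AL libraries, 55.0, 153, 85.0, 101 and 79.9 CPM in those of IF16, and 73.0, 118, 132, 138 and 65.9 CPM in EOD. In each regimen 4 of 5 libraries exceeded every AL library, while IF16 1 and EOD 5 did not. The log2 fold change was 0.83 ± 0.270 in IF16 (unadjusted p = 0.00674, adjusted p = 0.358) and 0.99 ± 0.270 in EOD (unadjusted p = 0.00206, adjusted p = 0.228, edgeR). The refed libraries ran from 43.5 to 122 CPM in AL-R, from 33.2 to 129 CPM in IF16-R and from 44.6 to 153 CPM in EOD-R. Their differences from AL-R were 0.33 ± 0.328 and 0.48 ± 0.328 (adjusted p = 0.773 and 0.736, edgeR).

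As a group, 0 of the 10 members passed the edgeR threshold in IF16 against AL, where 0.0483% of 16577 genes were called, or in EOD against AL, where 0.0664% were called. At an unadjusted p under 0.05, 4 members were higher in IF16 (4.35% of all genes) and 2 lower (5.57% of genes, 9.92% in either direction). In EOD 5 were higher (7.02% of genes) and 2 lower (7.4% of genes, 14.4% in either direction). The higher members were Fos, Nr4a1, Npas4 and Dusp1 in both regimens and Fosb in EOD, and the lower members were Arc and Ier5 in both. DESeq2 called 1 member in IF16 (Ier5, lower) and 2 in EOD (Ier5, lower, and Npas4, higher, adjusted p = 0.0463). It also called more of all genes than edgeR in both comparisons, so the edgeR shares are not its background. Arc and Ier5 were the only members whose libraries did not overlap between EOD and AL, both lower, where 1.53% of all genes were lower and 2.9% had no overlap in either direction, and no member was free of overlap between IF16 and AL (1.55% of genes). The median log2 fold change of the 10 members was 0.35 in IF16 and 0.395 in EOD, against -0.0062 and -0.0178 over all genes tested. The IF16 and EOD comparisons share the AL libraries. Between EOD and IF16, edgeR called 0 members and 0% of genes, with 0 members at an unadjusted p under 0.05 (3.62% of genes) and 0 called by DESeq2.

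Without the 4 libraries that stood apart, which was tried after seeing the data, Npas4 kept log2 fold changes of 1.0 in IF16 and 1.29 in EOD, and Arc and Ier5 kept -0.49 and -0.51 in IF16 and -0.38 and -0.37 in EOD. Fos had 0.97 and 0.82, and its unadjusted p in EOD was 0.0805. At an unadjusted p under 0.05, 3 members (Fos, Npas4 and Dusp1) were then higher and 2 (Arc and Ier5) lower in IF16, and 2 (Npas4 and Dusp1) were higher and the same 2 lower in EOD. These counts were not set against the share of all genes in that fit. In bulk cerebellum, fewer cells of a type and less RNA per cell cannot be told apart.

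**Figure D2:**
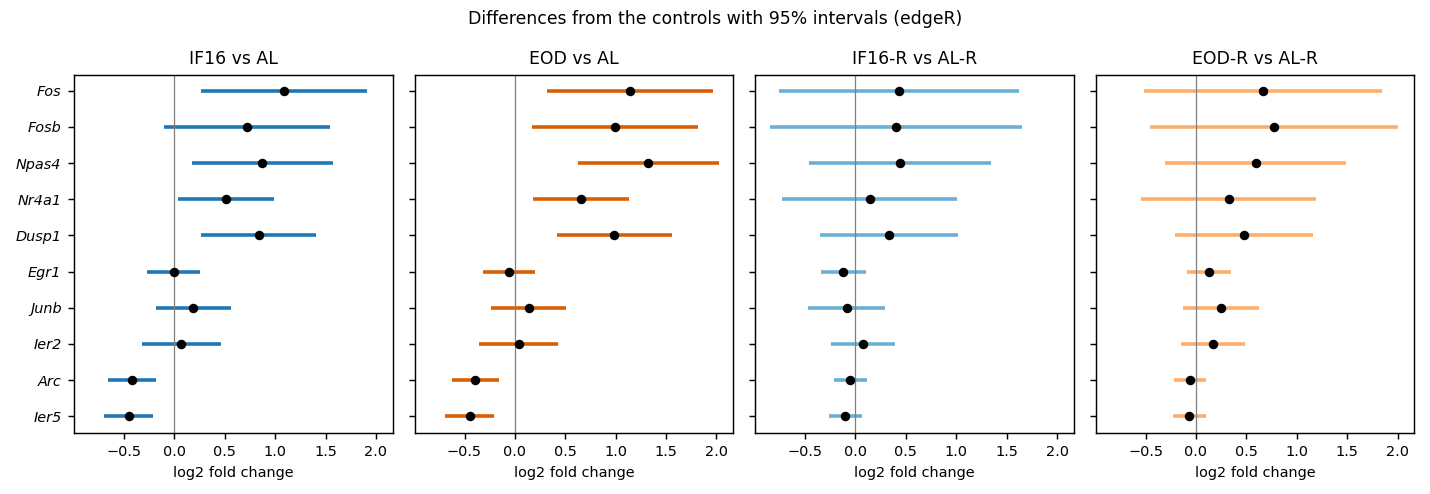
Log2 fold change of each member (points) with its 95% interval (lines, edgeR) in the 4 comparisons with the control groups. At the end of the regimens (left pair) Fos, Npas4, Nr4a1 and Dusp1 lie above 0 and Arc and Ier5 below it, and after refeeding (right pair) every interval includes 0. No adjusted p reached 0.05, and the fit has no term for the replicate number.

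Among the refed groups, edgeR called 0 members in IF16-R against AL-R (0.17% of 16444 genes called), in EOD-R against AL-R (0.0426%) and in EOD-R against IF16-R (0.0182%). At an unadjusted p under 0.05, in this fit with no term for the replicate number, there were 0, 0 and 1 members (Egr1), against 9.58%, 8.5% and 9.75% of all genes, and DESeq2 called 0 in each. With the number as a block no member was called either. The unadjusted p in EOD-R against AL-R was then 0.00208 for Fos (adjusted p = 0.141, edgeR), and stayed above 0.05 for Arc, Npas4 and Ier5. The median log2 fold change of the members was 0.11 in IF16-R and 0.29 in EOD-R against AL-R, against -0.0023 and 0.0007 over all genes. Whether the regimen effect itself differed from before to after refeeding was tested as an interaction in a joint fit of all 30 libraries. Again 0 members were called by edgeR for IF16 (0.0474% of 16877 genes) or for EOD (0.0119%), and 0 by DESeq2. Arc and Ier5 were the 2 members with an unadjusted p under 0.05 in either interaction (7.21% and 10.3% of all genes). For Arc the effect after refeeding exceeded that at the end of the regimen by 0.38 ± 0.138 in IF16 (unadjusted p = 0.0109, adjusted p = 0.534) and by 0.33 ± 0.138 in EOD (adjusted p = 0.466, edgeR). For Ier5 the same values were 0.35 ± 0.145 and 0.38 ± 0.145 (adjusted p = 0.607 and 0.458, edgeR). The Fos interactions were -0.65 ± 0.766 and -0.48 ± 0.765, with intervals that run from -2.22 to 0.91 and from -2.04 to 1.08. Comparisons across the 2 tables mix age, collection and table, which cannot be told apart. With that limit, 0 members were called in AL-R against AL, where 23.9% of genes were, and 0 had an unadjusted p under 0.05 (40% of genes) or a DESeq2 call.

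The members spread widely between single libraries. The spread was measured as the SD of log2 CPM within groups, pooled over the 3 groups of a table. In the table of the regimens it was 0.754 for Fos, above that of 98.4% of genes, 0.683 for Fosb, 0.613 for Npas4, 0.494 for Dusp1 and 0.417 for Nr4a1. Ier2 (0.328), Junb (0.307), Egr1 (0.210), Ier5 (0.194) and Arc (0.186) spread less, and the median over all genes was 0.196. After refeeding the values were 1.35 for Fosb and 1.24 for Fos, each above 99.9% of genes, 0.981 for Npas4, 0.858 for Nr4a1 and 0.682 for Dusp1, against a median of 0.113 over all genes. Of the 10 members, 4 in the regimens and 5 after refeeding exceeded the 90th percentile of all genes (0.442 and 0.376).

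Most genes spread less after refeeding. The SD in the regimens exceeded that after refeeding for 78.3% of genes, with a median ratio of 1.48. Only 4 of the 10 members, Arc (1.41), Ier5 (1.41), Ier2 (1.14) and Egr1 (1.05), followed that direction. The ratio was 0.486 for Nr4a1, 0.505 for Fosb, 0.606 for Fos, 0.625 for Npas4 and 0.724 for Dusp1. These 5 genes thus spread more in the refed table, where most genes spread less.

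**Figure D3:**
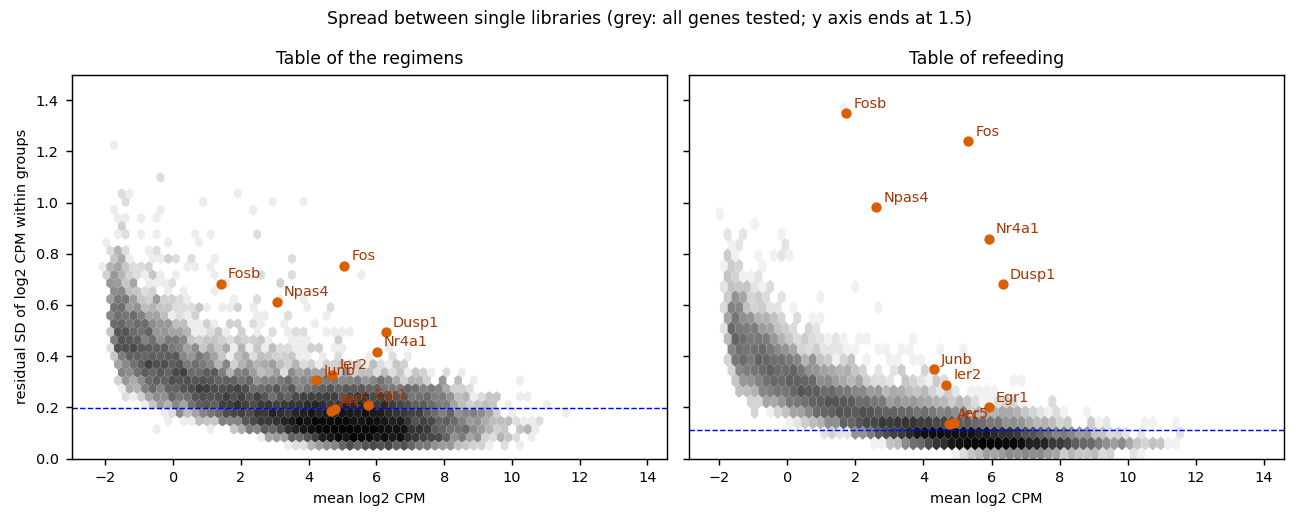
Pooled SD of log2 CPM within groups against mean log2 CPM, for all genes tested (grey, darker where more genes lie) and for the 10 members (orange), in the table of the regimens (left) and of refeeding (right). The dashed line is the median of all genes, 0.196 on the left and 0.113 on the right. Fos and Fosb lie far above genes of like level, while Arc and Ier5 lie within the cloud, and genes above the top of the axis are not drawn.

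The deviations were shared between members. After removal of group means, Fos correlated over the 15 libraries of the regimens with Nr4a1 (r = 0.965, rho = 0.957), Npas4 (r = 0.894, rho = 0.861), Dusp1 (r = 0.868, rho = 0.825) and Egr1 (r = 0.688, rho = 0.754). These had adjusted permutation p-values for r of 8e-05, 0.00032, 0.00063 and 0.0074 (two-sided, shuffled within groups with 100000 resamples, Benjamini-Hochberg over 24 relations), and for rho of 0.0003, 0.00093, 0.003 and 0.0037. Fosb (r = 0.646, adjusted permutation p = 0.058, rho = 0.700, adjusted p = 0.034) and Junb (r = 0.484, p = 0.11, rho = 0.593, p = 0.035) passed by rank alone. Ier2 (r = 0.387), Arc (r = 0.065) and Ier5 (r = -0.319) did not pass. Without AL 4 and IF16 2, the libraries farthest from the median of Fos, r was 0.962 for Nr4a1, 0.877 for Npas4, 0.839 for Dusp1 and 0.584 for Egr1.

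After refeeding the relations with Fos were r = 0.987 for Dusp1, 0.976 for Nr4a1, 0.933 for Fosb, 0.911 for Npas4, 0.909 for Ier2 and 0.785 for Junb (rho 0.982, 0.979, 0.904, 0.907, 0.918 and 0.861). The adjusted permutation p-values for r were 8e-05, 8e-05, 0.00029, 0.00051, 0.00018 and 0.0031, and those for rho ranged from 0.00012 to 0.0011. The shuffling treats the libraries of a group as exchangeable. In this table the replicate number went with 90.1% of the sum of squares of Fos within groups. The refed p-values do not allow for that and can be too small. The smallest unadjusted p that 100000 resamples gave, 1e-05, was reached by Dusp1 and Nr4a1. Ier5 went against Fos (r = -0.654, adjusted permutation p = 0.022, rho = -0.546, adjusted p = 0.085), and r was -0.527 without IF16-R 1 and EOD-R 1. Without those 2 libraries r was 0.973 for Dusp1, 0.975 for Nr4a1, 0.871 for Fosb, 0.810 for Npas4, 0.881 for Ier2 and 0.808 for Junb. Egr1 (r = 0.322, adjusted permutation p = 0.38) and Arc (r = -0.167, p = 0.72) did not pass. Egr1 thus moved with Fos in the regimens and passed no threshold after refeeding, where r was 0.712 without IF16-R 1 and EOD-R 1. The difference between the 2 tables was not tested.

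Measures of tissue and library were compared with Fos by the same test. With the choroid plexus markers (their mean log2 CPM) r was -0.166 in the regimens and -0.069 after refeeding, with the length slope 0.456 and -0.021, and with the log2 total count -0.067 and 0.144. The adjusted permutation p-values for r ranged from 0.19 to 0.95 over these 6 relations, so none passed, and whether they differ from the relations with members was not tested. Relations of values from the same libraries share depth and scaling factor.

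**Figure D4:**
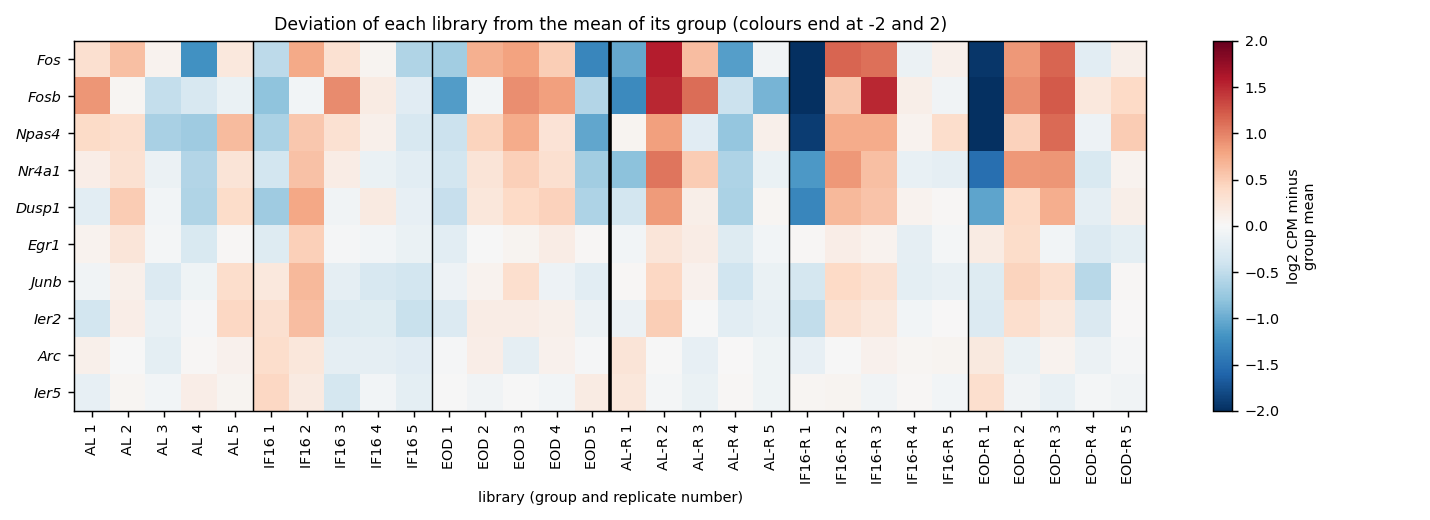
Deviation of log2 CPM from the mean of the group for each member (rows) in each library (columns), red above and blue below the mean. Colours end at -2 and 2. The upper 5 rows, Fos to Dusp1, change colour together from library to library, most in AL-R 2, IF16-R 1 and EOD-R 1, and the lower 2 rows, Arc and Ier5, stay pale.

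Over all 45 pairs of members the median r was 0.499 in the regimens and 0.650 after refeeding. Fos, Fosb, Nr4a1, Npas4 and Dusp1, a set named after the values were seen, had r of 0.513 to 0.965 over their 10 pairs in the regimens and 0.845 to 0.987 after refeeding. Junb and Ier2 formed a close pair (r = 0.894 and 0.914). Arc and Ier5 formed another (r = 0.674 and 0.650). Ier5 had negative r with all 5 genes of the Fos set in both tables, from -0.581 to -0.223 and from -0.753 to -0.594. In each group the libraries with the highest and the lowest Fos were looked up, so Fos itself is counted by that choice. AL-R 2 held the highest value of its group for 8 of the 10 members and IF16-R 2 for 8, and IF16 2 did so for 7, while IF16-R 1 held the lowest value for 8. The library with the highest Fos did so for 4 members in AL, 6 in EOD and 5 in EOD-R. In the groups other than IF16-R, the library with the lowest Fos held the lowest value for 4 to 6 members. The same count over all genes was not made, so these numbers are no result about the members.

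**Figure D5:**
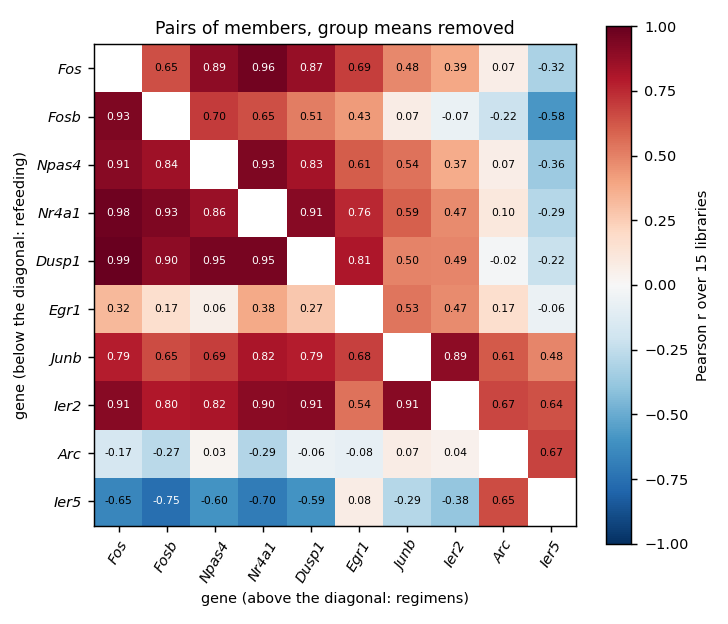
Pearson r between members over the 15 libraries of a table after removal of group means, above the diagonal for the regimens and below it for refeeding. The block of Fos, Fosb, Npas4, Nr4a1 and Dusp1 is red throughout, at 0.513 or more, and Ier5 is blue against all 5 in both tables.

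Genes outside the 10 whose deviations were most like the mean of the members were looked up in each table as a description. In the regimens these included Egr4 (r = 0.871), a further EGR zinc finger factor, Fam181a (0.822), Nrarp (0.813) and Bco2 (0.812), among 13167 genes with a mean of at least 1 CPM. After refeeding they were Tob1 (r = 0.975), an antiproliferative gene of the BTG family, Dnaaf2 (0.907), Cdc23 (0.889), Sik1 (0.878), a salt-inducible kinase, and Uncx (0.863), among 13130 genes. In the table that did not choose them r was 0.826 for Egr4, 0.704 for Nrarp, 0.778 for Tob1, 0.504 for Sik1 and 0.620 for Uncx, and -0.175 to 0.316 for Fam181a, Bco2, Dnaaf2 and Cdc23.

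A wider list of 50 other immediate early genes held 49 that were tested. In IF16 edgeR called 1, Per1, a clock repressor that is also induced acutely, and in EOD it called 2, Apold1, an endothelial early gene, and Per1, all higher, with 0 called lower (0.0483% and 0.0664% of all genes called in either direction). Per1 rose from 92.3 to 132 CPM in AL to 147 to 211 CPM in IF16 and 149 to 225 CPM in EOD, with no overlap (log2 fold change 0.73 ± 0.123, adjusted p = 0.0451, and 0.72 ± 0.123, adjusted p = 0.0436, edgeR). Apold1 rose from 2.14 to 3.93 CPM in AL to 5.93 to 12.9 CPM in EOD (1.58 ± 0.258, adjusted p = 0.0357), and in IF16 it measured 4.75 to 12.2 CPM (1.46 ± 0.258, adjusted p = 0.0519, edgeR). With any 1 library left out, the EOD count was 0 or 1, and the IF16 count was 0 without any of AL 1, AL 3, AL 4, AL 5, IF16 2, IF16 3, IF16 4 and IF16 5 and 2 without IF16 1. At an unadjusted p under 0.05, 21 of the 49 were higher and 3 lower in IF16 (4.35% and 5.57% of all genes), and 22 higher and 2 lower in EOD (7.02% and 7.4% of all genes). The list was chosen with earlier results of these data known, so these counts describe it and are no independent test. The median log2 fold change of this list was 0.17 and 0.18. Endothelial markers summed to 317 to 336 CPM in AL, 256 to 322 CPM in IF16 and 253 to 315 CPM in EOD, and their part in the Apold1 result was not tested. After refeeding, in fits with no term for the replicate number, 0 of the 49 were called by edgeR or DESeq2 in the 3 comparisons. At an unadjusted p under 0.05 there were 3, 5 and 1 (9.58%, 8.5% and 9.75% of all genes). With the number as a block, edgeR called 1 of the list in IF16-R and 2 in EOD-R against AL-R.

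Of 38 upstream regulators (kinases, calcium channels and factors such as CREB, SRF and MEF2), edgeR called 0 in IF16 and 0 in EOD, as did DESeq2, with 3 and 8 of the 38 at an unadjusted p under 0.05 (9.92% and 14.4% of all genes). The 2 smallest p-values in IF16 were those of Rps6ka3, a MAP kinase-activated kinase (0.31 ± 0.144 log2, adjusted p = 0.499), and Crebbp, a coactivator of CREB (0.16 ± 0.0736, adjusted p = 0.502, edgeR). In EOD they were those of Mkl1, a cofactor of SRF (0.25 ± 0.0791, adjusted p = 0.271), and Crebbp (0.22 ± 0.0736, adjusted p = 0.293, edgeR). Of 19 late response genes tested, which are targets of the early factors, edgeR called 0 in IF16 and in EOD, with 7 and 8 of the 19 at an unadjusted p under 0.05, set against the same shares of all genes. DESeq2, which called more of all genes than edgeR, called 1 and 2 of them. Nptx2, a neuronal pentraxin, had 1.63 to 2.16 CPM in IF16 and 1.54 to 2.51 CPM in EOD, beside 2.43 to 5.38 CPM in AL (-0.90 ± 0.201, adjusted p = 0.164, and -0.89 ± 0.201, adjusted p = 0.170, edgeR). The other late genes with the smallest p were Sst in IF16 (-1.28 ± 0.400, adjusted p = 0.345), a neuropeptide at 5.74 to 31.2 CPM in AL (median 7.55 CPM) and 5.50 to 7.30 CPM in IF16 (median 5.95 CPM), and Bdnf in EOD (0.60 ± 0.151, adjusted p = 0.203, edgeR), a neurotrophin. Nptx2 thus shared the direction of Arc and Ier5, and Bdnf that of Fos. After refeeding 0 regulators and 0 late genes were called by edgeR or DESeq2 in fits with no term for the replicate number. At an unadjusted p under 0.05 there were 4, 2 and 5 of 38 regulators and 0, 1 and 1 of 17 late genes tested. The shares of all genes were 9.58%, 8.5% and 9.75%. The regulators and late genes were also listed with earlier results of these data known.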

How the data were processed

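Read counts per gene were deposited by the authors as whole numbers, in 2 tables of 15 libraries each (30 in all), with FPKM values that equal the counts over gene length and library total (largest relative difference 5e-12 for genes with at least 10 counts). The submitters' processing notes name STAR 2.5, HTSeq 0.6.1, DESeq2 2 and the mouse build mm10, and the handling of read strand is not given in the sources used here. The 12 chromatin samples were not analysed here. Libraries were grouped by their labels. Each table was fitted as a whole with edgeR 4.0.16 (R 4.3.3): TMM scaling, filterByExpr, 1 mean per group, quasi-likelihood test, Benjamini-Hochberg adjustment over all genes tested, calls at an adjusted p under 0.05. This left 16577 and 16444 genes, and 16877 in a joint fit that tested interactions. Standard errors come from the F statistic. Log2 CPM values used a prior count of 2. The procedure was tested on simulated counts.

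DESeq2 1.42.0, other scaling, no filter, covariates (length slope, choroid plexus markers), a replicate block, 2-group fits and fits without each library were the alternatives. Over the 60 pairs of libraries of the same group, the chi-square statistic per degree of freedom was 4.24 to 136, so all were counted as separate. Pairs with AL-R 1 had 13 to 16.2, against 4.24 to 8.71 in the other pairs of AL-R. Pairs with IF16-R 1 had 11.7 to 20.6, against 4.54 to 12.3 in the rest of IF16-R. For EOD-R 1 the values were 9.41 to 17.4, against 8.84 to 15.7. The genes named were the 10 members, every called gene of the 3 further lists or otherwise the 2 with the smallest p, and the 5 genes most like the members in each table, of which 1 is not reported here. The members and lists were chosen with earlier results of these data known. Permutation tests used Python 3.11.15 and numpy 2.4.6.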

Additional observations from a re-analysis of the deposited data

Results flagged for a closer look

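In each group of 5 libraries, the gap of the highest or lowest library to its neighbour was divided by the range of the group on the log2 CPM scale, and 4 of 60 combinations of member and group exceeded 0.71. About 3 of 60 are expected by chance. Ier5 in EOD had a gap ratio of 0.749, with EOD 5 at 27.6 CPM above 23.4 to 24.4 CPM in the other 4 libraries, and EOD 5 also had the lowest Fos of its group. In EOD-R the ratio for Ier5 was 0.805, with EOD-R 1 the highest at 36.8 CPM. The same library, EOD-R 1, was the lowest for Fosb (0.611 CPM, ratio 0.74, against 4.76 to 9.57 CPM in the others). Npas4 in IF16-R had a ratio of 0.745, with IF16-R 1 at 1.70 CPM and the others at 6.69 to 10.6 CPM.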

How the results depend on the processing

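For most comparisons of single members, direction and call held under the alternatives, and most of these were not called in any fit. The number of genes called over all genes changed in most comparisons. DESeq2 made more calls over all genes: 94 in IF16 against AL (edgeR 8), 131 in EOD against AL (11), 1 in EOD against IF16 (0), 108 in IF16-R against AL-R (28), 90 in EOD-R against AL-R (7), 119 in EOD-R against IF16-R (3), 30 and 12 in the IF16 and EOD interactions (8 and 2). It called 1 member in IF16 (Ier5, -0.45) and 2 in EOD (Npas4, 1.33, and Ier5, -0.44), 3 and 8 other immediate early genes, and 1 and 2 late response genes. With the length slope as covariate the counts were 62, 7, 1, 0, 0, 0, 36 and 6 in the same order and 223 in AL-R against AL (4030), with 1 member called in IF16 (Ier5, -0.39, adjusted p = 0.0365, edgeR), 2 and 1 other immediate early genes, and Junb in IF16-R reversed to 0.12. With the choroid plexus markers as covariate the counts were 4 in IF16, 18 in EOD, 16 in EOD-R and 1085 in AL-R against AL, with 0 other immediate early genes in IF16, and Ier2 in EOD reversed to -0.0072. Without the filter, 2 other immediate early genes were called in IF16, 1 gene in EOD against IF16, 11 in EOD-R against AL-R, 6 in EOD-R against IF16-R and 4 in the EOD interaction. Fits of only the 2 groups compared gave 5 in IF16, 1 in EOD against IF16, 4 in EOD-R against AL-R and 0 in EOD-R against IF16-R, with 0 and 1 other immediate early genes. DESeq2-type size factors and TMM over all genes with a count (added after seeing the data) each gave 7 in EOD with 1 other immediate early gene, and the latter gave 0 in EOD-R against AL-R. Without AL 4, AL 5, IF16 1 and EOD 4 together (also added) EOD had 2 calls and 0 other immediate early genes. The causes of these changes were not tested.

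Leaving out each library in turn gave 3 to 10 calls in IF16, 2 to 6 in EOD, 0 to 65 in IF16-R, 0 to 16 in EOD-R, 0 to 71 in EOD-R against IF16-R, 5 to 16 and 0 to 6 in the interactions and 830 to 6173 in AL-R against AL. Members called ranged from 0 to 1 in IF16 and were 0 elsewhere, and other immediate early genes ranged from 0 to 2 in IF16 and from 0 to 1 in EOD. Log2 fold changes of Egr1 ran from -0.14 to 0.059 in IF16 and from -0.13 to 0.0057 in EOD, and of Ier5 in IF16 from -0.57 to -0.37. Sign also changed for Ier2 (-0.11 to 0.18 in IF16, -0.044 to 0.16 in EOD, -0.0093 to 0.22 in IF16-R), Junb (-0.010 to 0.28 in IF16, -0.20 to 0.032 in IF16-R), Nr4a1 (-0.12 to 0.49) and Fosb (-0.10 to 0.89) in IF16-R, Arc (-0.086 to 0.021 in IF16-R, -0.11 to 0.013 in EOD-R) and the Fos EOD interaction (-0.79 to 0.091). Without the 2 libraries farthest from its median, the relation of Fos reversed with Arc in the regimens (-0.021), with the choroid plexus markers (0.037) and the length slope (0.068) after refeeding.

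With the replicate number as a block, calls were 5 in IF16, 4 in EOD, 95 in IF16-R, 45 in EOD-R, 40 in EOD-R against IF16-R and 10 in the EOD interaction, with 0, 1, 1 and 2 other immediate early genes in the first 4 comparisons and no change in the members called. Same-numbered libraries correlated from -0.534 to 0.322 in the regimens and from -0.055 to 0.427 after refeeding, over 0.1 in 3 and 8 of 15 pairs, and 0 and 10 of 15 libraries correlated best with their own number. Not every pair was over 0.1 in either table, so the numbers were not taken to pair the samples, and the 10 refed libraries are a hint from the data, not the design. These correlations were taken over all genes tested. For single members the number went with 90.1% (Fos) to 18.5% (Arc) of the refed sum of squares within groups, so the fit without it can overstate their refed standard errors. With the block, 2 members in IF16-R and 7 in EOD-R had an unadjusted p under 0.05 (0 and 0 without it), among them Fos in EOD-R (0.69, adjusted p = 0.141, edgeR). These counts were not set against the share of all genes in the same fit. Calls over all genes rose with the block as well, from 28 in IF16-R and 7 in EOD-R.

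At 26799825 or more counts per library, the counting error at the lowest count was 13.5% to 23.6% for Fosb and 6.87% to 14.1% for Npas4 over the 6 groups, below their coefficients of variation between libraries (42.7% to 82.2% and 31.1% to 57.6%).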

Other observations

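The refed libraries of the 3 groups carry the same replicate numbers, and Fos levels went with the number. Libraries numbered 1 had 8.59 to 15.2 CPM in all 3 refed groups, those numbered 2 had 90.4 to 91.4 CPM, those numbered 3 had 47.5 to 112 CPM, those numbered 4 had 14.4 to 42.8 CPM and those numbered 5 had 29.3 to 54.1 CPM. Nr4a1 measured 23.2 to 31.0 CPM in libraries numbered 1 and 112 to 120 CPM in those numbered 2, and Dusp1 33.2 to 52.5 CPM and 122 to 129 CPM. As a share of the sum of squares of log2 CPM within groups, the number went with 94.4% for Nr4a1, 90.1% for Fos, 88.1% for Fosb and 18.5% for Arc, against a median of 43.4% over all genes. The other shares were 87.0% for Junb, 83.5% for Ier2, 81.3% for Dusp1, 80.9% for Egr1, 73.6% for Ier5 and 64.8% for Npas4. Arc was thus the only member below that median. In the table of the regimens the shares were 39.9% for Nr4a1, 47.8% for Fos, 24.9% for Fosb and 52.4% for Arc, against a median of 26.1%. The other members had 49.6% (Dusp1), 42.9% (Egr1), 29.3% (Junb), 26.6% (Ier2), 22.2% (Npas4) and 18.6% (Ier5). With 5 numbers over 15 libraries, some share goes with the number by chance in either table, and the shares were not tested. The labels do not say what a number marks, and what it stands for was not tested.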
